A study of Rattus norvegicus with 8 samples.

Results

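Tetrodotoxin (TTX) blocks the voltage-gated sodium channels that carry action potentials, so that a neuron culture stops firing while spontaneous release at its synapses goes on. The comparison described here is a short silencing: TTX for 4 h in rat neuron cultures that had never been silenced (group HT), set against cultures given vehicle both times (group HH). It takes in 4 of the 8 libraries, 2 of HT and 2 of HH, and every expressed gene, that is 11372 of the 16871 gene symbols of the count table. RNA made during the last 30 min before harvest was labelled with 2 mM bromouridine (BrU), a base analogue that cells build into new RNA, captured and sequenced (BrU-seq), so a value reports recent transcription more than the standing pool of RNA.

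Both groups received vehicle (water) for 24 h on day 14 in vitro and a washout of 48 h. On day 17 HT cultures received 1 µM TTX and HH cultures received vehicle again. The cells were primary cultures of cortical and hippocampal tissue from Sprague Dawley rats aged 1 to 2 days, named hippocampal in the sample labels although both tissues went in. In the remaining groups, used here for the estimate of the spread and for a second view of the same treatment, TTX stood in the first slot: TT was silenced in both periods and TH in the first only, with 2 libraries each. Total counts ran from 3491150 to 3890197 in the HT and HH libraries. All values per gene below are CPM, the counts of a gene scaled to the same library size throughout, in the order replicate 1, replicate 2, and differences are log2 fold changes ± standard error with n = 2 libraries per group. The labels do not say whether replicates are separate cultures or litters. In HT and in HH the replicates differed in RNA of a Y-linked gene, as given below, so they were not technical repeats of the same cells. A p-value here weighs a difference against the spread of these libraries. How many cultures, animals or litters that spread covers is not known.

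When neurons stop firing, calcium entry through synaptic and voltage-gated channels falls, and the genes that calcium switches on within minutes to hours (Fos, Npas4, Arc, Bdnf) lose their drive. Longer silence sets off homeostatic scaling, in which cells adjust receptors, channels and excitability to bring firing back. Cultures of this kind also hold astrocytes and cells of the oligodendrocyte lineage, which sense neuronal activity through transmitters and growth factors, and progenitors that still divide.

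The libraries carried the markers of such a mixed culture. The 5 neuronal markers (Rbfox3, Map2, Tubb3, Snap25, Syt1) summed to 4107 and 3719 CPM in HT, against 5550 and 3940 CPM in HH. The 6 astrocyte markers summed to 1462 and 1273 CPM in HT, against 1232 and 1034 CPM in HH, and the 8 markers of the oligodendrocyte lineage to 646 and 704 CPM in HT, against 463 and 546 CPM in HH. Markers of other types were lower: the 6 microglial markers summed to 9.57 and 11.2 CPM in HT, against 10.8 and 11.5 CPM in HH, and the 5 of fibroblasts and meninges to 4.14 and 3.65 CPM in HT, against 4.01 and 6.26 CPM in HH. The 4 endothelial markers summed to 48.6 and 86.8 CPM in HT, against 52.4 and 88.2 CPM in HH, nearly all of it Flt1, and the 3 of mural cells to 19.7 and 16.8 CPM in HT, against 9.56 and 15.1 CPM in HH, nearly all of it Pdgfrb. Cldn5 of endothelial cells and Kcnj8 of mural cells were at 0 counts throughout.

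Before the results, 2 facts about the libraries bear on every value. First, the HH replicates stood far apart. HH replicate 1 exceeded HH replicate 2 by more than 2-fold in 230 of the 11372 genes (2.02%), and HH replicate 2 exceeded HH replicate 1 by that much in 316 (2.78%), against 281 genes in either direction between the HT replicates. In 4827 genes the mean of the HT libraries lay between the 2 HH libraries. Second, the replicate numbers marked a difference that the groups did not. Eif2s3y, a gene of the Y chromosome and so transcribed only in male cells, had 2 and 191 counts in HT replicates 1 and 2, against 0 and 215 in HH replicates 1 and 2 (0.517 and 53.6 CPM against 0 and 56.1 CPM). Its X-linked partner Eif2s3x ran the other way, at 74.2 and 54.7 CPM in HT, against 109.5 and 51.1 CPM in HH. Replicate 1 of HT and of HH thus held almost no RNA of this Y-linked gene and replicate 2 held much. In the other groups TT had 3 and 0 counts and TH had 1 and 249. The deviations of the replicates from their group means were correlated across genes between HT and HH (r = 0.447), which describes these libraries only. Whether Y-linked RNA, the source of the cells or another property of the cultures accounts for the split was not tested, since within HT and HH they cannot be told apart from the replicate number. For this reason the differences within replicate 1 (HT1 minus HH1) and within replicate 2 (HT2 minus HH2) are given beside the pooled ones for part of the lists and genes.

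**Figure D1:**
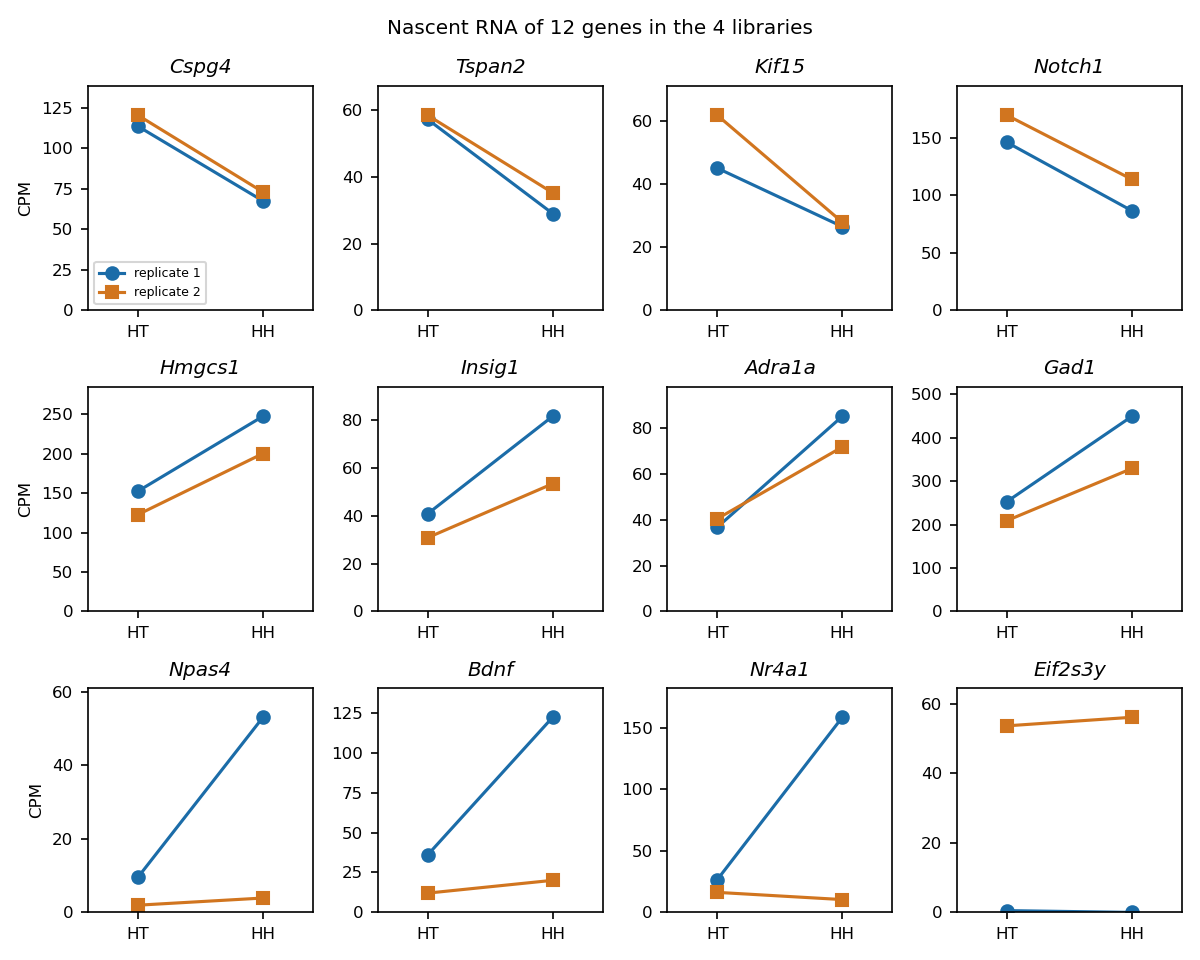
Nascent RNA of 12 genes in CPM (y axes, from 0) in the HT libraries (left in each panel) and the HH libraries (right), 1 point per library, with replicate 1 as blue circles and replicate 2 as orange squares; a line joins libraries of the same number and does not mean that they came from 1 culture. Cspg4, Tspan2, Kif15 and Notch1 were higher and Hmgcs1, Insig1, Adra1a and Gad1 lower in both HT libraries than in both HH libraries, Npas4, Bdnf and Nr4a1 were highest in HH replicate 1, and Eif2s3y follows the replicate number.

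No gene passed the adjusted threshold of 0.05 in the fit of the 4 group means (edgeR's quasi-likelihood test, Benjamini-Hochberg adjustment, smallest adjusted p = 0.5195): 0.0% were called higher and 0.0% lower. At an unadjusted p under 0.05, 427 genes lay higher in HT (3.75%) and 311 lower (2.73%). Both HT libraries lay above both HH libraries in 2119 genes (18.6%) and below both in 1897 (16.7%). With library totals in place of composition scaling these counts were 2933 and 1117. These shares are the background for the gene groups described below. DESeq2 and limma-voom also called 0 genes, with 348 and 696 at an unadjusted p under 0.05.

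When the 4 HT and HH libraries were fitted alone with a term for the split that Eif2s3y shows, which in these 4 libraries is the replicate number, 144 of 11071 genes passed (edgeR, adjusted p under 0.05): 60 were higher in HT (0.542%) and 84 lower (0.759%). This fit was added after the data were seen, has 1 residual degree of freedom, and treats libraries of equal number as belonging together, which the labels do not state. On simulated counts with no change built in, 5 runs of the same fit made 1 to 3 calls each, and with 200 genes changed 7.73% of its calls were false. Those counts were drawn with the replicate split and the spread that this fit itself estimated. They cannot tell whether either holds in the data, and so do not show how many of the 144 calls are false. With the same term for HT and HH placed in the fit of all 8 libraries, 6 genes were called higher (0.0528%) and 18 lower (0.158%), and all 24 were among the 144. Of the genes described below, that fit called Cspg4, Kif15, Kifc1, Notch1, Acss1 and Zcchc24 higher, and Hmgcs1, Cyp51, Insig1, Gad1, Adra1a, Kcnc2, Myo16, Ppargc1a, Il1rapl2, Npas4, Bdnf, Dusp5 and Ltbp1 lower. With 1 term for Y-linked RNA shared by all 8 libraries, or 1 replicate term shared by the 4 groups, 0 genes were called. Below, "with the replicate term" refers to the fit of the 4 libraries. A change ± standard error between HT and HH comes from the fit of 4 groups unless it is given with the term. That holds also where an adjusted p with the term follows it.

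Genes of cell division lay higher in HT. All 36 tested members of the list of mitosis and cytokinesis genes lay above 0 in HT, with a median log2 change of 0.72, against 0.00 over all genes tested. In 32 of the 36 both HT libraries lay above both HH libraries, and 27 had an unadjusted p under 0.05 in that direction. The median was 0.75 against HH replicate 1 alone and 0.64 against HH replicate 2 alone, and within replicates it was 0.56 in replicate 1 and 0.79 in replicate 2. With the replicate term 10 members were called higher and 0 lower.

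Kif15, a motor that holds the spindle poles apart, stood at 45.02 and 61.8 CPM in HT, against 26.5 and 27.9 CPM in HH (0.97 ± 0.19; adjusted p = 0.00348 with the replicate term). Ect2, the exchange factor that switches on RhoA at the cleavage furrow, stood at 38.8 and 46.3 CPM in HT, against 24.7 and 23.7 CPM in HH (0.81 ± 0.17), and its partner Racgap1 of the centralspindlin complex at 23.3 and 28.9 CPM in HT, against 12.9 and 14.1 CPM in HH (0.94 ± 0.20). Both were called with the term. Cdk1, the kinase that drives entry into mitosis, had 19.4 and 27.5 CPM in HT, against 12.03 and 11.5 CPM in HH, and Tpx2, which activates Aurora A on the spindle, had 32.6 and 39.3 CPM in HT, against 17.9 and 22.7 CPM in HH. In each of these the 2 groups did not overlap. Others called with the term were the kinetochore gene Cenpf (0.84 ± 0.20), the condensin gene Smc4 (0.65 ± 0.16), the spindle genes Hmmr (1.04 ± 0.28) and Nusap1 (0.96 ± 0.27), and the motor gene Kif11 (0.69 ± 0.25). Mki67, the usual marker of cycling cells, stood at 30.5 and 40.4 CPM in HT, against 21.9 and 24.3 CPM in HH and was not called (0.61 ± 0.23; adjusted p = 0.0798 with the replicate term). The list had its exceptions: Ccnb1, the cyclin partner of Cdk1, had 26.4 and 27.8 CPM in HT, against 28.1 and 25.6 CPM in HH, with overlapping groups and a change of 0.02 ± 0.16, and Cdc20 stood at 0.10 ± 0.44. Outside the list, Kifc1, a minus-end motor that clusters spindle poles, had 17.1 and 21.3 CPM in HT, against 5.55 and 9.13 CPM in HH (1.36 ± 0.31), and Kif18b, a motor that trims astral microtubules, had 26.4 and 26.9 CPM in HT, against 12.7 and 14.9 CPM in HH (0.95 ± 0.20).

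Genes of mitosis are known to share promoter elements, the cell-cycle genes homology region (CHR) and the CCAAT box, through which they are held off in resting cells and switched on late in the cycle. RefSeq promoter windows of 250 bases before to 50 after the start site (build GRCr8) were at hand for 32 of the 36 members. TTTGAA, the letters of the CHR, was present on either strand in 25 of the 32 (78.1%), against 18.1% of 27457 promoters of all genes and 11.4% of 8627 promoters of genes tested here. CCAAT was present on either strand in 24 (75.0%), against 37.7% of all promoters. A promoter with both is counted under both, and a match is a run of letters and not a measured binding site. The windows around the matches are shown for the 3 members with a CHR match and the smallest p, with CHR and CCAAT letters of either strand in capitals and each window printed 5′ to 3′ on the strand of its gene. They lie at chr8:131479154-131479378 (GRCr8, plus strand) for Kif15, chr2:111966609-111966796 (GRCr8, minus strand) for Ect2 and chr20:19265068-19265297 (GRCr8, plus strand) for Cdk1.
Kif15: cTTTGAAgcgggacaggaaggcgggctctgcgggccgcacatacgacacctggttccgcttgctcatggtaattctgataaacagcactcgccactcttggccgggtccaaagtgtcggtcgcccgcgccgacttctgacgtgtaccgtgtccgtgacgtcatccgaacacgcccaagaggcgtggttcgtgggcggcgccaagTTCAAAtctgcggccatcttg
Ect2: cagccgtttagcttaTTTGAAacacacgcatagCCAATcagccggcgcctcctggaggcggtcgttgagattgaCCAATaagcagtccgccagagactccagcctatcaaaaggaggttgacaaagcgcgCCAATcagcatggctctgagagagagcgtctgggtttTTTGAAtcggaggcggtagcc
Cdk1: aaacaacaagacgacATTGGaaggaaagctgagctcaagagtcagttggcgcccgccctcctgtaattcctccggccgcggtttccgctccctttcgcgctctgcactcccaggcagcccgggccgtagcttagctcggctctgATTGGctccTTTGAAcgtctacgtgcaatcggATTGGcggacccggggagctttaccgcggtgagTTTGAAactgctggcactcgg
All 3 hold 2 CHR matches, and Ect2 and Cdk1 hold 3 CCAAT matches each beside them, while Kif15 has none in this window.

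DNA replication genes, which act earlier in the cycle, lay closer to 0 as a list. Of 33 tested members 22 lay above 0, 14 had both HT libraries above both HH libraries and 3 had them below, and the median was 0.13. Rrm2, the regulated subunit of the enzyme that makes deoxynucleotides, had 13.4 and 16.00 CPM in HT, against 8.02 and 4.96 CPM in HH (1.20 ± 0.27; adjusted p = 0.0461 with the replicate term). Pole, the leading-strand polymerase, had 16.8 and 19.1 CPM in HT, against 10.5 and 8.09 CPM in HH (0.96 ± 0.31; adjusted p = 0.0565 with the replicate term), and Mcm5 of the replicative helicase had 10.6 and 9.83 CPM in HT, against 5.86 and 6.26 CPM in HH (0.75 ± 0.31). In all 3 the groups did not overlap, and only Rrm2 was called. The E2F site, read here as TTTGGCGC or TTTCCCGC on either strand, was in 11 of the 26 promoters at hand for this list (42.3%), against 1.53% of all promoters and 2.85% of promoters of genes tested here. It was in 0 of the 32 promoters of the mitosis list. The 2 members with an E2F match and the smallest p show it, in capitals, at chr12:52053642-52053679 (GRCr8, minus strand) for Pole and chr19:13488589-13488827 (GRCr8, plus strand) for Mcm5.
Pole: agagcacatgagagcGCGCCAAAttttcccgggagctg
Mcm5: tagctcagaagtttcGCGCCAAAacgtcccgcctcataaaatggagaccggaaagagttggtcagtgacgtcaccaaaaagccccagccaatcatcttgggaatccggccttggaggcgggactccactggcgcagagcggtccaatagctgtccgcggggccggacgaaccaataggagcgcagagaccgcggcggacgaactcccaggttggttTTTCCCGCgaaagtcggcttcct
Among regulators of the same cycle, E2f7, a repressor of the E2F family, had 18.9 and 17.7 CPM in HT, against 10.8 and 9.65 CPM in HH (0.84 ± 0.25), and Ccnd1, the cyclin of early G1, had 52.5 and 50.8 CPM in HT, against 40.1 and 39.9 CPM in HH (0.37 ± 0.15). Neither was called in either fit.

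The oligodendrocyte lineage lay higher in HT from progenitors to premyelinating cells. All 15 tested genes of progenitors (OPCs) lay above 0, with a median of 0.37. In 11 of them both HT libraries lay above both HH libraries and in 0 below. Against HH replicate 1 alone the median was 0.31, and against HH replicate 2 alone 0.42. Cspg4, which encodes the NG2 proteoglycan of OPCs and had the smallest p of all genes, stood at 114 and 120.4 CPM in HT, against 67.5 and 73.03 CPM in HH (0.73 ± 0.12; adjusted p = 0.5195 in the fit of 4 groups and 0.00318 with the replicate term). The HT libraries were close to each other and so were the HH libraries. Pdgfra, the receptor for the OPC mitogen PDGF, had 197 and 229.6 CPM in HT, against 145 and 157 CPM in HH (0.50 ± 0.15). The lineage factors Sox10, at 38.8 and 49.97 CPM in HT, against 19.1 and 34.4 CPM in HH (0.71 ± 0.26), and Sox8, at 51.2 and 53.9 CPM in HT, against 30.8 and 38.1 CPM in HH (0.60 ± 0.17), were called with the replicate term like Cspg4 and Pdgfra. Olig2, which specifies the lineage, had 137 and 125 CPM in HT, against 105 and 97.5 CPM in HH (0.37 ± 0.12) with groups that did not overlap, and was not called (adjusted p = 0.115 with the replicate term). Gpr17, a receptor of cells leaving the progenitor state, had 13.7 and 12.9 CPM in HT, against 6.48 and 6.78 CPM in HH (1.00 ± 0.33).

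All 13 tested genes of premyelinating cells lay above 0 (median 0.36), with 10 whose HT libraries lay above both HH libraries. Bcas1, a marker of newly forming oligodendrocytes, had 329 and 272 CPM in HT, against 224 and 134 CPM in HH. Its change was 0.75 ± 0.44 in the fit of 4 groups, and it was called only with the replicate term (0.78 ± 0.12, adjusted p = 0.00318). Its HT libraries lay above both HH libraries, and the HH libraries differed from each other by 0.75 on the log2 scale. Of 15 myelin genes 7 were expressed enough to be tested and 5 lay above 0. Mbp, a major protein gene of central myelin, had 85.9 and 107 CPM in HT, against 85.7 and 134 CPM in HH with overlapping groups (-0.19 ± 0.29). Tspan2, a tetraspanin of oligodendrocytes, had 57.2 and 58.4 CPM in HT, against 28.99 and 35.2 CPM in HH (0.84 ± 0.18; adjusted p = 0.00640 with the replicate term).

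Astrocyte genes lay higher by less. Of 22 tested, 20 lay above 0, 11 had both HT libraries above both HH libraries and 2 had them below, with a median of 0.24. Gfap, the intermediate filament of astrocytes, had 507 and 437 CPM in HT, against 337 and 368 CPM in HH (0.42 ± 0.17), and Aqp4, their water channel, had 194 and 172 CPM in HT, against 165 and 133 CPM in HH (0.30 ± 0.14). No member was called in either fit. Of 12 tested genes of ependymal cells and radial glia 10 lay above 0, with a median of 0.21, which was 0.43 against HH replicate 1 and 0.06 against HH replicate 2. Both HT libraries lay above both HH libraries in 3 of the 12 and below in 1, Pax6, a factor of progenitors, at 23.03 and 20.5 CPM in HT, against 33.00 and 26.9 CPM in HH (-0.45 ± 0.26). With the replicate term 3 were called higher: the receptor gene Notch1, at 146 and 169.8 CPM in HT, against 86.7 and 114 CPM in HH (0.65 ± 0.16; adjusted p = 0.00472), and the filament genes Vim (0.73 ± 0.30) and Nes (0.55 ± 0.24). Vim stood at 52.00 and 94.6 CPM in HT, against 39.2 and 48.5 CPM in HH and Nes at 73.99 and 115 CPM in HT, against 51.8 and 76.7 CPM in HH, so that replicate 2 was above replicate 1 in both groups. In libraries made from whole cultures, more cells of a type and more RNA per cell cannot be told apart. Beside the higher values of the glial and dividing-cell lists, the sum of inhibitory neuron markers was lower in HT (616 and 564 CPM in HT, against 996 and 761 CPM in HH over 6 markers). Gad1 and Gad2 carried that difference: the sum of the other 4 was 106 and 111 CPM in HT, against 103 and 112 CPM in HH. The sum of 6 excitatory neuron markers was 799 and 759.7 CPM in HT, against 726 and 778 CPM in HH, and the part of cell numbers in these values was not tested.

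**Figure D2:**
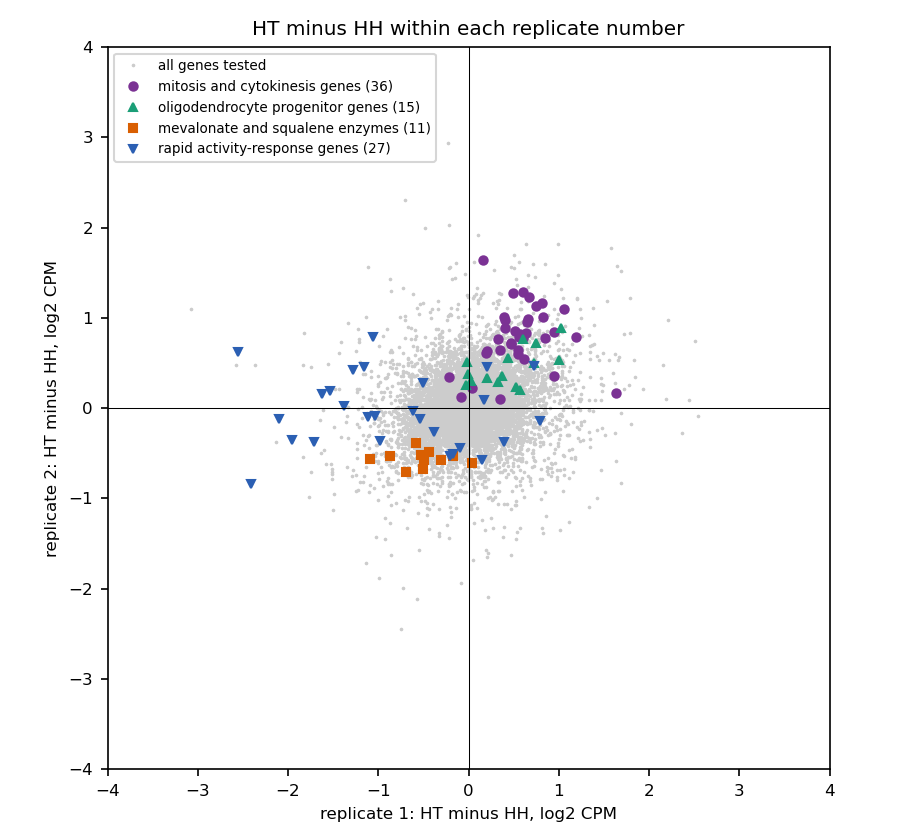
Difference in log2 CPM, HT minus HH, within replicate 1 (x axis) and within replicate 2 (y axis), 1 point per gene, for all 11372 genes tested (grey) and 4 gene lists. Mitosis and OPC genes lie mostly to the upper right, mevalonate pathway genes to the lower left, and rapid activity-response genes stretch along the x axis only.

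Cholesterol synthesis lay lower in HT along its whole length. The pathway turns acetyl-CoA through mevalonate and squalene into lanosterol and then cholesterol, and its genes are switched on together by SREBP2 when membranes run short of sterol. All 11 tested genes of the mevalonate and squalene part lay below 0 (median -0.53), 9 of them with both HT libraries below both HH libraries. So did all 9 late enzymes after lanosterol (median -0.46), 4 of them without overlap. Against HH replicate 2 alone, the lower of the 2 controls for 9 of the 11 and 7 of the 9 genes, the medians were -0.40 and -0.40. Within replicates 10 of the 11 and 8 of the 9 lay below 0 in both, against 29.2% of all genes tested. With the replicate term 4 of the 11 and 2 of the 9 were called lower and 0 of either higher.

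Hmgcs1, which makes HMG-CoA, had 152 and 123 CPM in HT, against 247 and 200.1 CPM in HH (-0.70 ± 0.16; adjusted p = 0.00277 with the replicate term). Idi1, which isomerises isopentenyl diphosphate, stood at 23.5 and 19.6 CPM in HT, against 50.9 and 29.2 CPM in HH (-0.88 ± 0.25), and Fdft1, squalene synthase, at 86.4 and 58.4 CPM in HT, against 122 and 93.9 CPM in HH (-0.57 ± 0.26). Both were called with the term. Of the late enzymes, the demethylase Cyp51 had 59.8 and 44.9 CPM in HT, against 121 and 74.1 CPM in HH (-0.89 ± 0.27; adjusted p = 0.00277) and Msmo1, which acts after it, had 50.5 and 43.5 CPM in HT, against 84.5 and 62.3 CPM in HH (-0.64 ± 0.18; adjusted p = 0.0217, both with the replicate term). Dhcr7, which makes the last step, overlapped between the groups at 47.1 and 43.5 CPM in HT, against 43.2 and 54.2 CPM in HH (-0.11 ± 0.16).

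The controls of the pathway split. Insig1, the sterol-induced brake on SREBP processing that is itself an SREBP target, had 40.9 and 30.9 CPM in HT, against 81.7 and 53.5 CPM in HH (-0.90 ± 0.26; adjusted p = 0.00318 with the replicate term), lower in each HT library than in either HH library. Srebf1, the SREBP gene tied to fatty acid synthesis, lay the other way at 286 and 345 CPM in HT, against 180.4 and 256 CPM in HH (0.53 ± 0.18; adjusted p = 0.0188 with the replicate term). Srebf2, which encodes SREBP2 itself, stood at 206 and 188 CPM in HT, against 236 and 212 CPM in HH (-0.18 ± 0.13). Of 8 tested genes of cholesterol efflux and turnover 7 lay above 0 and 5 had both HT libraries above both HH libraries (median 0.27). The efflux pump gene Abca1 had 223 and 235 CPM in HT, against 172 and 195 CPM in HH (0.32 ± 0.14), Cyp46a1, the neuronal enzyme that turns cholesterol into an exportable form, had 48.6 and 49.1 CPM in HT, against 38.2 and 39.6 CPM in HH (0.33 ± 0.14), and none was called in either fit. The fatty acid list had 14 of 17 members below 0 but a median of only -0.13. The member furthest above 0 was Acss1, a mitochondrial acetyl-CoA synthetase, at 126 and 120.4 CPM in HT, against 60.8 and 76.9 CPM in HH (0.84 ± 0.16; adjusted p = 0.00277 with the replicate term), while Acss2, its counterpart in cytosol and nucleus, had 33.1 and 33.97 CPM in HT, against 43.2 and 41.5 CPM in HH (-0.33 ± 0.14). Scd1, a desaturase outside the list, had 27.9 and 29.5 CPM in HT, against 37.9 and 64.7 CPM in HH (-0.85 ± 0.31).

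Promoters were at hand for 7 of the 11 mevalonate and 8 of the 9 late sterol genes. CCAAT, the box bound by NF-Y, which works beside SREBPs at such promoters, was present in 6 of the 7 (85.7%) and 6 of the 8 (75.0%), against 37.7% of all promoters. TCACNCCAC, an SREBP element, was in 0 of either, against 1.13% of all promoters, which says only that these letters are not in these windows. Hmgcs1, the member with the smallest p, carries 2 CCAAT boxes (in capitals, on the other strand) at chr2:53382101-53382190 (GRCr8, plus strand).
Hmgcs1: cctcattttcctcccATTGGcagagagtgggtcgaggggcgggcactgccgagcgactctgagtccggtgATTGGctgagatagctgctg

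The enzymes that make GABA, and peptides of interneurons, lay lower in HT. Gad1, which makes most of the GABA in the cell body, had 253 and 209 CPM in HT, against 449 and 329 CPM in HH (-0.75 ± 0.20; adjusted p = 0.00277 with the replicate term), and Gad2, its form at synapses, had 257 and 243 CPM in HT, against 443 and 319.5 CPM in HH (-0.61 ± 0.17; adjusted p = 0.0183). All HT libraries lay below all HH libraries for both. The peptides of interneurons lay on the same side: Sst, somatostatin, had 53.5 and 64.6 CPM in HT, against 90.98 and 94.2 CPM in HH and Npy, neuropeptide Y, had 16.6 and 16.3 CPM in HT, against 36.1 and 24.3 CPM in HH, with changes of -0.65 ± 0.46 and -0.87 ± 0.56 in the fit of 4 groups and calls only with the replicate term (adjusted p = 0.0135 and 0.0324). The list of inhibitory identity genes was mixed, with 17 of 25 below 0 and a median of -0.17. Sox6, a factor of interneurons that progenitors of oligodendrocytes also use, lay above 0 at 1131 and 1367 CPM in HT, against 967 and 883 CPM in HH (0.43 ± 0.19). Excitatory identity genes had 11 of 19 above 0 and a median of 0.00.

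Neuropeptides and granins as a list had 17 of 18 tested members below 0 and 12 with both HT libraries below both HH libraries (median -0.42; -0.54 against HH replicate 1 and -0.25 against HH replicate 2). Vgf, a granin-like precursor that follows neurotrophin and activity, had 72.2 and 51.1 CPM in HT, against 115 and 102 CPM in HH. Its change was -0.81 ± 0.52 in the fit of 4 groups and -0.82 ± 0.12 with the replicate term (adjusted p = 0.00318). Pcsk1, the convertase that cuts such precursors, had 18.4 and 10.9 CPM in HT, against 38.5 and 20.6 CPM in HH (-0.99 ± 0.37; adjusted p = 0.0121 with the term). Scg2, secretogranin II, had 18.4 and 16.8 CPM in HT, against 35.2 and 25.6 CPM in HH (-0.78 ± 0.38; -0.78 ± 0.18 with the term, adjusted p = 0.0431). Igf1, a growth factor made by some interneurons, had 22.5 and 19.1 CPM in HT, against 50.9 and 25.6 CPM in HH (-0.86 ± 0.35; -0.84 ± 0.19 with the term, adjusted p = 0.0332). In these the HH replicate 1 value was the highest of the 4 libraries.

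The activity genes are where the 2 HH libraries disagreed most. Of 27 tested rapid activity-response genes 23 lay below 0, with a median of -0.53, but this median was -1.08 against HH replicate 1 and 0.13 against HH replicate 2. Those 2 values use the mean of both HT libraries. Within replicates the median was -0.98 in replicate 1 and -0.10 in replicate 2, with 21 and 16 of the 27 below 0. HH replicate 1 had the highest value of the 4 libraries in 19 of the 27, against 3394 of the 11372 genes tested. In 4 of the 27 (14.8%) both HT libraries lay below both HH libraries, close to the 16.7% of all genes. None of the 27 was called in the fit of 4 groups, and 2 were called lower with the replicate term. ERK feedback genes showed the same split, with medians of -0.84 against HH replicate 1 and 0.34 against HH replicate 2 over 15 genes. Within replicates their medians were -0.52 in replicate 1 and 0.19 in replicate 2. The 41 later activity-response genes had medians of -0.68 against HH replicate 1 and -0.07 against HH replicate 2, and within replicates -0.61 and -0.19. In 16 of them both HT libraries lay below both HH libraries and in 0 above, and 8 were called lower with the term.

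Some genes lay lower in HT within each replicate in spite of that gap. Npas4, a factor that neurons make only on calcium entry, had 9.57 and 1.97 CPM in HT, against 53.05 and 3.91 CPM in HH. HT replicate 1 exceeded HH replicate 2, so the groups overlapped, and the change was -2.24 ± 1.21 in the fit of 4 groups and -2.25 ± 0.27 with the replicate term (adjusted p = 0.00247). Bdnf, a neurotrophin whose promoters answer to calcium, had 35.96 and 12.1 CPM in HT, against 122 and 20.1 CPM in HH and likewise overlapped (-1.54 ± 0.94; -1.46 ± 0.19 with the term, adjusted p = 0.00262). Within replicates Npas4 stood at -2.41 and -0.84, and Bdnf at -1.75 and -0.71. For both genes the change with the term lay closer to that of replicate 1. The replicate 2 values of Npas4 were low in both groups and rest on few reads. Against HH replicate 2 alone, with both HT libraries kept, the fit of 4 groups turned both to the higher side, at 0.59 for Npas4 and 0.27 for Bdnf. Fosb of the AP-1 family had 11.6 and 6.74 CPM in HT, against 39.2 and 8.87 CPM in HH (-1.35 ± 0.70; -1.32 ± 0.27 with the term, adjusted p = 0.0201). Within replicates Fosb stood at -1.71 and -0.37. Dusp5, a phosphatase that ERK induces against itself, had 12.2 and 4.49 CPM in HT, against 35.5 and 10.4 CPM in HH (-1.42 ± 0.66; -1.44 ± 0.23 with the term, adjusted p = 0.00334). Syt4, a synaptotagmin of dense-core vesicles, did not overlap between the groups, at 55.6 and 58.1 CPM in HT, against 91.6 and 75.4 CPM in HH (-0.55 ± 0.16; adjusted p = 0.0463 with the term).

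Others lay the other way or close to 0 within replicate 2. Fos had 11.6 and 6.46 CPM in HT, against 37.01 and 5.74 CPM in HH, so that its difference was -1.63 in replicate 1 and 0.16 in replicate 2. Nr4a1, an orphan nuclear receptor induced by calcium, had 26.6 and 16.3 CPM in HT, against 158 and 10.4 CPM in HH, with -2.55 in replicate 1 and 0.62 in replicate 2. Nr4a3 had 64.9 and 23.6 CPM in HT, against 189 and 20.6 CPM in HH, and Egr1, a zinc-finger factor of the same kind, had 32.9 and 30.6 CPM in HT, against 80.5 and 22.7 CPM in HH. Arc, which removes AMPA receptors from synapses, had 9.31 and 6.46 CPM in HT, against 41.6 and 7.04 CPM in HH (-1.59 ± 0.81; adjusted p = 0.0543 with the replicate term). In Fos, Nr4a1, Nr4a3, Egr1 and Arc HH replicate 1 was highest and HT replicate 1 came next. Without HH replicate 2 in the fit of 4 groups, the HH group rested on replicate 1 alone, the highest library for these genes. Nr4a1 then stood at -2.88, Arc at -2.39, Fos at -2.02 and Egr1 at -1.34. Without HH replicate 1, both HT libraries were set against HH replicate 2 alone, and HT replicate 1 remained in the fit. There Fos, Nr4a1, Nr4a3, Egr1 and Arc lay above 0 in HT. Without replicate 1 of both HH and HT, Fos stood at 0.17, Nr4a1 at 0.64, Nr4a3 at 0.19 and Egr1 at 0.43. Arc in replicate 2 was lower in HT, at 6.46 CPM against 7.04 CPM in HH. What the labels record does not set the 2 HH libraries apart, and which of them is nearer to the usual state of vehicle cultures cannot be told from 2 libraries.

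**Figure D3:**
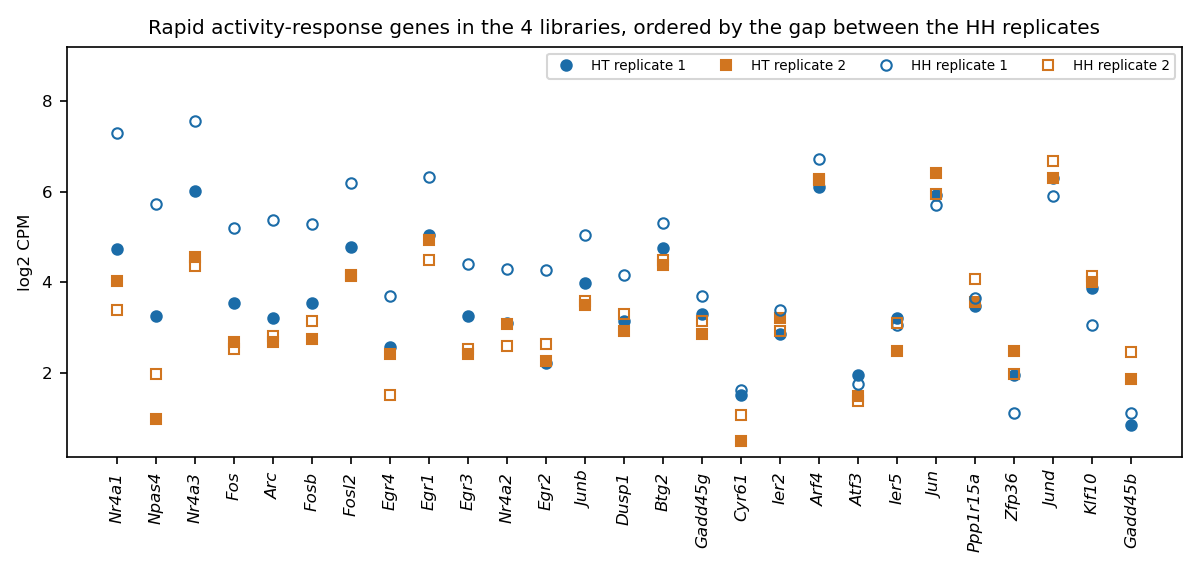
Level in log2 CPM (y axis) of the 27 tested rapid activity-response genes (x axis, ordered from the largest excess of HH replicate 1 over HH replicate 2 at the left) in HT replicate 1 and 2 (filled) and HH replicate 1 and 2 (open). HH replicate 1 is the highest of the 4 libraries in 19 of these genes, against 3394 of all 11372 genes tested.

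CRE, the calcium and cAMP response element, was searched as TGACGTCA in the 19 promoters at hand for the rapid list and was found in 5 (26.3%), against 1.91% of all promoters and 3.3% of promoters of genes tested here. The member with a match and the smallest p is Dusp1, a phosphatase of MAP kinases, at chr10:17184714-17184751 (GRCr8, plus strand), with the CRE in capitals.
Dusp1: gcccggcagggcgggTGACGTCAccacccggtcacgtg
Dusp1 had 8.80 and 7.58 CPM in HT, against 17.9 and 9.91 CPM in HH, the HT libraries below both HH libraries (-0.74 ± 0.30; adjusted p = 0.201 with the replicate term).

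The gap between the HH libraries was not one of activity genes alone. Trdn, triadin of calcium stores, had 22.5 and 9.54 CPM in HT, against 100.2 and 12.5 CPM in HH (-1.78 ± 0.96; -1.67 ± 0.30 with the replicate term, adjusted p = 0.0305). Within replicates Trdn stood at -2.13 and -0.37. Hapln1, a link protein of perineuronal nets, had 17.3 and 5.33 CPM in HT, against 31.5 and 6.00 CPM in HH. In the other direction Txnip, an inhibitor of thioredoxin and glucose uptake that follows glucose, had 34.4 and 80.3 CPM in HT, against 25.3 and 102 CPM in HH, and its relative Arrdc4 had 13.7 and 38.7 CPM in HT, against 13.3 and 44.6 CPM in HH. Sstr2, a somatostatin receptor, had 5.69 and 13.2 CPM in HT, against 4.63 and 16.9 CPM in HH. For Txnip, Arrdc4 and Sstr2 replicate 2 was above replicate 1 in HT as in HH. Among genes with a mean of 10 CPM or more, Eif2s3y and then Ddx3 had the largest excess of HH replicate 2 over HH replicate 1 (-6.83 and -6.44 for replicate 1 minus replicate 2 on the log2 scale), well beyond that of Txnip (-1.99).

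Receptors, channels and release genes lay slightly below 0 as lists. Adra1a, the alpha-1A adrenergic receptor, had the smallest p among genes lower in HT, at 36.7 and 40.4 CPM in HT, against 85.1 and 71.7 CPM in HH (-1.02 ± 0.20; adjusted p = 0.5195 in the fit of 4 groups and 0.00262 with the replicate term). Adrb1, the beta-1 receptor, lay the other way at 27.9 and 31.2 CPM in HT, against 10.5 and 19.04 CPM in HH (0.98 ± 0.44; 1.00 ± 0.20 with the term, adjusted p = 0.0201). Grm2, a presynaptic metabotropic glutamate receptor, had 26.1 and 30.6 CPM in HT, against 42.2 and 50.3 CPM in HH (-0.71 ± 0.26; adjusted p = 0.0244 with the term). Of the ionotropic subunits, Gria1 stood at -0.20 ± 0.18 and Gria2 at -0.25 ± 0.19, and 10 of 22 AMPA receptor genes lay above 0 with a median of -0.01. GABA receptor and inhibitory synapse genes had 17 of 21 below 0 (median -0.26), but -0.46 against HH replicate 1 and -0.01 against HH replicate 2. Within replicates their median was -0.33 in replicate 1 and -0.14 in replicate 2.

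Of 43 potassium and HCN channel genes 30 lay below 0 (median -0.15), and 4 were called lower with the replicate term. Both HT libraries lay below both HH libraries in 7 of the 43 (16.3%), close to the 16.7% of all genes. The median was -0.25 against HH replicate 1 and -0.07 against HH replicate 2. Kcnc2, a Kv3 channel of fast-spiking interneurons, had 201 and 109.5 CPM in HT, against 368 and 165 CPM in HH (-0.77 ± 0.41; -0.74 ± 0.11 with the term, adjusted p = 0.00277), and Kcnj3, a G-protein-gated inward rectifier, had 295 and 165 CPM in HT, against 535 and 209.7 CPM in HH (-0.69 ± 0.45; -0.62 ± 0.12 with the term, adjusted p = 0.0201). In both, HT replicate 1 lay above HH replicate 2, so the groups overlapped. Of 35 presynaptic release genes 27 lay below 0 (median -0.14), with -0.19 against HH replicate 1 and -0.05 against HH replicate 2. In 6 of the 35 (17.1%) both HT libraries lay below both HH libraries, again close to the share of all genes. Snap25, a core SNARE, had 463 and 331 CPM in HT, against 761 and 417 CPM in HH (-0.57 ± 0.27; -0.53 ± 0.12 with the term, adjusted p = 0.0464). Among the genes of smallest p outside the lists, the unconventional myosin gene Myo16 had 559 and 502 CPM in HT, against 963 and 872 CPM in HH (-0.79 ± 0.17; adjusted p = 0.00334 with the term) and Ppargc1a, the coactivator PGC-1alpha of mitochondrial biogenesis, had 93.7 and 91.5 CPM in HT, against 154 and 128 CPM in HH (-0.60 ± 0.13; adjusted p = 0.0121). Pcbp3, an RNA-binding protein gene, had 266 and 278 CPM in HT, against 465 and 427 CPM in HH (-0.71 ± 0.17; adjusted p = 0.00329 with the term). In each the groups did not overlap. Il1rapl2, of the synaptic adhesion family of interleukin-1 receptor accessory proteins, had 122 and 92.7 CPM in HT, against 215 and 151 CPM in HH (-0.76 ± 0.19; adjusted p = 0.00262 with the term).

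The genes of the channels that TTX blocks, with their partners, also lay slightly below 0 as a list. Of 15 tested voltage-gated sodium channel genes and partners 11 lay below 0, with a median of -0.13, and none was called in either fit. Both HT libraries lay below both HH libraries in 5 of the 15 (33.3%, against 16.7% of all genes) and above both in 1. The median was -0.16 against HH replicate 1 and -0.06 against HH replicate 2. Scn2a, the main sodium channel of excitatory axons, had 368 and 326 CPM in HT, against 418 and 360.2 CPM in HH (-0.16 ± 0.15), Scn8a, its partner at mature axons, had 342 and 321 CPM in HT, against 336 and 332 CPM in HH (-0.01 ± 0.12), and Scn1a, the channel of interneurons, had 126 and 112 CPM in HT, against 170.2 and 124 CPM in HH (-0.30 ± 0.16), with overlapping groups in all 3. The auxiliary subunit gene Scn2b lay above HH in both libraries, at 20.2 and 20.5 CPM in HT, against 13.3 and 14.3 CPM in HH (0.56 ± 0.19), and Fgf12, whose product binds and tunes the channels, lay below, at 785 and 707 CPM in HT, against 1201 and 914 CPM in HH (-0.50 ± 0.17).

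Other genes of several kinds were called lower with the replicate term. Vipr2, a receptor for vasoactive intestinal peptide, had 6.99 and 3.09 CPM in HT, against 12.03 and 19.04 CPM in HH (-1.615 ± 0.486; -1.60 ± 0.34 with the term, adjusted p = 0.0236). Crhbp, which binds corticotropin-releasing hormone, had 12.2 and 8.42 CPM in HT, against 29.6 and 16.4 CPM in HH (-1.14 ± 0.62; -1.15 ± 0.21 with the term, adjusted p = 0.0122). Pcp4, a small protein that binds calmodulin, had 42.2 and 35.6 CPM in HT, against 78.95 and 64.2 CPM in HH (-0.87 ± 0.22; adjusted p = 0.00318 with the term). All 3 were lower in each HT library than in either HH library. Synpr, synaptoporin of synaptic vesicles, had 233 and 253 CPM in HT, against 424 and 359 CPM in HH (-0.69 ± 0.18; adjusted p = 0.00578 with the term). Ltbp1, which anchors latent TGF-beta in the matrix, had 11.1 and 16.00 CPM in HT, against 23.1 and 44.1 CPM in HH (-1.32 ± 0.30; adjusted p = 0.00277 with the term). Rgs4, which damps G-protein signals, had 41.4 and 17.1 CPM in HT, against 77.1 and 29.7 CPM in HH and Per1, a clock gene that calcium also induces, had 34.4 and 24.4 CPM in HT, against 87.9 and 30.8 CPM in HH. Both overlapped between the groups and were called only with the term (adjusted p = 0.00690 and 0.0203). Homer1 and Nptx2, activity genes of the postsynapse and of AMPA receptor clustering, were not called: Homer1 had 407 and 323 CPM in HT, against 787 and 297 CPM in HH (-0.57 ± 0.41), and Nptx2 had 19.4 and 13.8 CPM in HT, against 27.8 and 19.8 CPM in HH (-0.51 ± 0.26). On the higher side, Abtb2 had 90.5 and 94.3 CPM in HT, against 53.97 and 52.7 CPM in HH (0.79 ± 0.18; adjusted p = 0.00318 with the term) and Zcchc24 had 307 and 326 CPM in HT, against 191 and 231 CPM in HH (0.58 ± 0.13; adjusted p = 0.0102), with no overlap between the groups in either.

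Genes for ribosomes and respiration lay slightly lower in HT. Of 57 cytosolic ribosomal protein genes 47 lay below 0 and 21 had both HT libraries below both HH libraries, against 2 above, with a median of -0.15. Within replicates their median was -0.24 in replicate 1 and -0.04 in replicate 2. Of 48 oxidative phosphorylation genes 39 lay below 0 and 23 lay wholly below, with a median of -0.12. Atp5g1, a subunit of the ATP synthase ring, had 26.1 and 30.04 CPM in HT, against 41.02 and 43.8 CPM in HH (-0.60 ± 0.18). No member of either list was called in either fit. Of the glycolysis list, 20 of 25 lay below 0 (median -0.09), and Pgk1, phosphoglycerate kinase, at 62.4 and 54.7 CPM in HT, against 83.9 and 94.2 CPM in HH, and Ldha, lactate dehydrogenase A, at 89.2 and 93.2 CPM in HT, against 118 and 137 CPM in HH, were called lower with the replicate term (adjusted p = 0.0254 and 0.0408). NMDA, kainate and metabotropic glutamate receptor genes had a median of -0.18 with 15 of 19 below 0, and medians of -0.29 against HH replicate 1 and -0.06 against HH replicate 2. Lists of other cell types held few tested genes: of 7 tested microglial genes 4 lay above 0, of 7 endothelial and mural genes 3, and of 4 meningeal and fibroblast genes 3, and none had an unadjusted p under 0.05. The 13 lists not summarised here had medians between -0.25 (monoamine and muscarinic receptors) and 0.39 (Wnt, BMP and Notch pathway targets). In the latter list 14 of 17 members lay above 0. Both HT libraries lay above both HH libraries in 7 of them (41.2%, against 18.6% of all genes) and below in 2. Of the 220 tested members of the 13 lists, 13 had an unadjusted p under 0.05 on the higher side and 11 on the lower, against 3.75% and 2.73% of all genes.

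**Figure D4:**
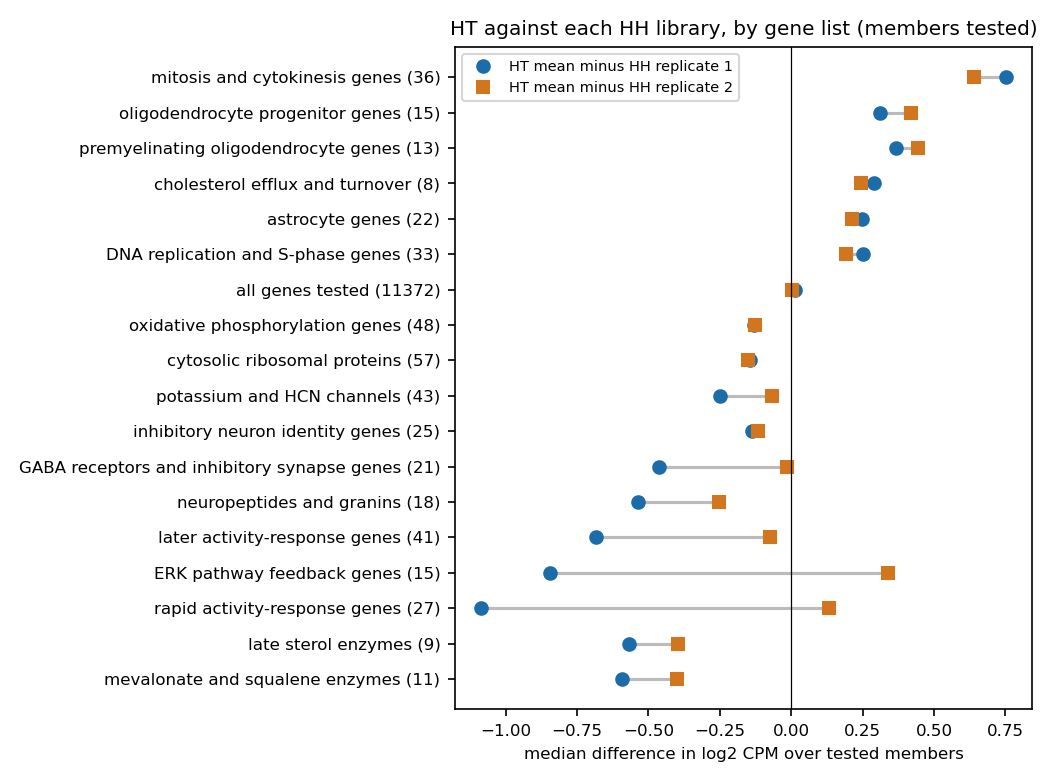
Median over the tested members of each list (number in parentheses) of the difference in log2 CPM between the mean of the 2 HT libraries and HH replicate 1 (blue circles) or HH replicate 2 (orange squares). The sterol, mitosis and oligodendrocyte lists lie on 1 side of 0 against both HH libraries, and the rapid and ERK lists lie on opposite sides. Each point uses both HT libraries, so it is not a difference within a replicate number.

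The same 4 h of TTX was given to cultures silenced before, and TT and TH share no library with HT and HH. Of the 60 genes called higher with the replicate term, 59 were also above 0 in TT against TH, with a median log2 change there of 0.37 against 0.72 in HT against HH. Of the 84 called lower, 79 were below 0 in TT against TH, with a median of -0.28 there against -0.71 in HT against HH. Eif2s3y was near 0 in both TT libraries and in 1 of 2 TH libraries, so that this comparison carries the split in another form. Over all genes tested, 58.6% of those above 0 and 56.7% of those below 0 in HT against HH had the same sign in TT against TH. The members shown above stood in TT against TH at -0.62 ± 0.16 for Hmgcs1, -0.47 ± 0.25 for Insig1, 0.37 ± 0.18 for Kif15, 0.70 ± 0.16 for Ect2 and 0.60 ± 0.17 for Tspan2. Vgf stood at -0.86 ± 0.53 and Adra1a at -0.50 ± 0.19. Of the other activity genes called lower with the term, Npas4 stood at -0.03 ± 1.64 and Bdnf at 0.04 ± 1.08 in TT against TH, Fosb at -0.29 ± 0.80, Dusp5 at -0.18 ± 0.76 and Syt4 at -0.29 ± 0.17. In TT against TH 18 of the 27 rapid genes lay below 0 (median -0.05), and 25 of the 41 later genes (median -0.09). Cspg4 stood at 0.04 ± 0.12. A test of the difference between the 2 responses called 0 genes (edgeR's quasi-likelihood test, smallest adjusted p = 0.9999, 186 genes at an unadjusted p under 0.05), so no gene was shown to respond differently after earlier silencing, and with 2 libraries per group a difference of moderate size could be missed.

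**Figure D5:**
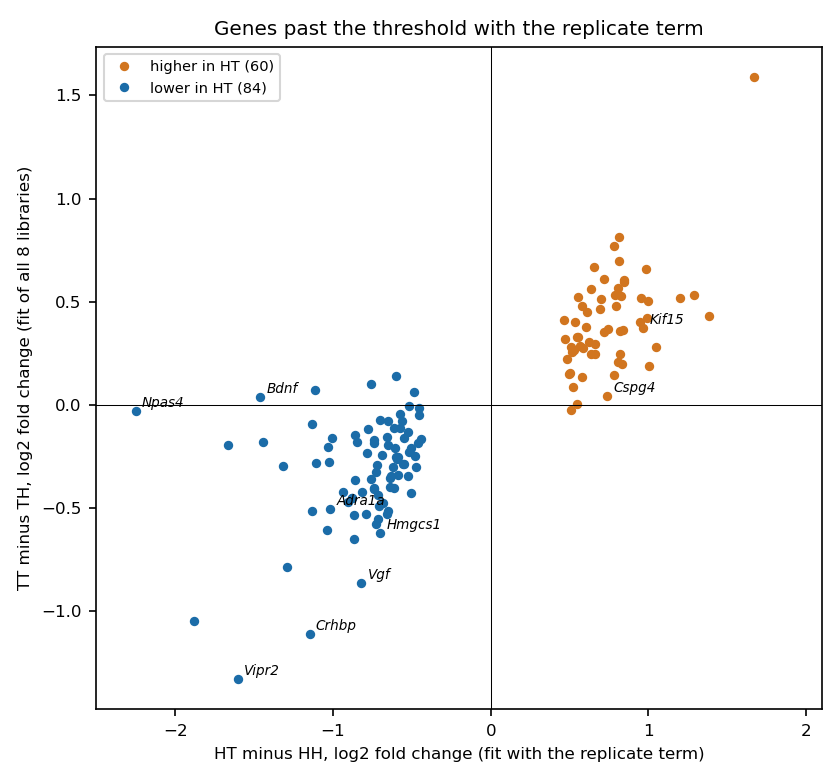
Log2 fold change in HT against HH with the replicate term (x axis) and in TT against TH in the fit of all 8 libraries (y axis) for the 144 genes past the threshold with the replicate term, 1 point per gene. Of the 60 higher genes 59 lie above 0 on the y axis, and of the 84 lower genes 79 lie below 0, while Npas4 and Bdnf lie near 0 on it.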

How the data were processed

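Nascent RNA was measured in 8 libraries, of which 4 are compared here. Per the labels' protocols, BrU-labelled RNA was captured and sequenced. FastQC, TopHat2, Bowtie2, featureCounts and the build rn6 are named in the submitters' processing notes, with neither versions nor a strand setting. The deposited values are raw read counts per gene symbol, made by the authors. 2 further columns of the table that match no sample label were not used. No row was a total or a count without a gene.

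Counts were tested with edgeR 4.0.16 in R 4.3.3 (TMM scaling, filterByExpr, quasi-likelihood fit of the 4 group means over all 8 libraries with 4 residual degrees of freedom, Benjamini-Hochberg adjustment, threshold 0.05), which left 11372 of 16871 symbols (67.4%), 1954 symbols having no count. CPM are TMM-scaled, and log2 levels per library use a prior count of 2. Standard errors are the absolute log2 change divided by the square root of the F statistic of the edgeR test. They rest on a spread moderated across genes and not on the 2 libraries of a group alone. DESeq2 1.42.0 and limma-voom (limma 3.58.1) were alternatives, beside other scalings, filters, terms and left-out libraries. The tests were tried on simulated counts, where the fit of 4 groups found 64.4% of 2-fold and 93.8% of 4-fold changes and the fit with the replicate term 82.2% and 96%. Each simulation used the spread estimated by the fit it tried, so these shares hold only if that spread is right. The common biological coefficient of variation was 0.128, and between replicates of HT and of HH the chi-square per degree of freedom was 5.298 and 11.42, so no library repeats another. Intervals of counts cover counting error only.

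Genes and lists were chosen with earlier results of these data known, and the fits with a replicate or Y-linked term were added after the data were seen. Named genes are the 8 of smallest p in each direction, up to 4 of smallest p per list, a set of standard genes, the steadiest changes and the widest gaps between HH replicates. 33 genes outside that rule were named after their values were seen, most of them because the fit with the replicate term called them. Promoter letters come from RefSeq (GRCr8) by symbol, whereas counts are on rn6, and no coordinates were converted. A few genes chosen by the naming rule are left out here.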

Additional observations from a re-analysis of the deposited data

How the results depend on the processing

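In the fit of 4 groups the count of 0 genes past the threshold held with RLE or library-total scaling, other filters, DESeq2, limma-voom and the HT and HH libraries alone. Leaving out 1 library at a time gave 0 to 32 lower and 0 higher calls, 455 to 1514 genes at an unadjusted p under 0.05, and 0 to 2 calls for the difference from TT against TH (2 without HH replicate 2, 1 without TH replicate 2). Without replicate 1 of both HH and HT 423 genes, and with DESeq2 348, had an unadjusted p under 0.05, against 738. No library can be left out of the fit of 4 libraries with the replicate term, which has 1 residual degree of freedom. Equal replicate numbers deviated together only between HH and HT (correlation 0.447, others from -0.0658 to 0.0867), and the labels do not say that equal numbers share a culture, so whether HT and HH are paired is undecided. The replicate block over all 8 libraries called 0 genes. The replicate block in the 4 HT and HH libraries gave 60 higher and 84 lower calls and 1482 genes at an unadjusted p under 0.05, and the block for HT and HH within all 8 libraries gave 6, 18 and 1127. The cause of these differences was not tested.

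With library totals only, 2933 genes lay wholly above and 1117 wholly below HH, against 2119 and 1897 with TMM, the OPC median was 0.45 and Scn8a stood at 0.069 (median of all genes 0.0812). With 1 library left out, list medians ranged from 0.31 to 0.42 (OPC), 0.54 to 0.92 (mitosis) and -1.12 to 0.17 (rapid activity genes). Of single genes, these changed sign with 1 library, or replicate 1 of both HH and HT, left out: Arc (-2.39 to 0.17), Bdnf (-2.54 to 0.27), Ccnb1 (-0.054 to 0.12), Cdc20 (-0.31 to 0.43), Dhcr7 (-0.32 to 0.068), Egr1 (-1.34 to 0.49), Flt1 (-0.57 to 0.34), Fos (-2.02 to 0.67), Fosb (-2.08 to 0.063), Homer1 (-1.11 to 0.30), Kcnj3 (-1.22 to 0.14), Mbp (-0.47 to 0.17), Npas4 (-3.81 to 0.59), Nr4a1 (-2.88 to 1.05), Nr4a3 (-2.13 to 1.11), Scn8a (-0.060 to 0.032) and Trdn (-2.63 to 0.37), where the positive end of Arc, Bdnf, Egr1, Fos, Fosb, Homer1, Kcnj3, Npas4, Nr4a1, Nr4a3 and Trdn came without HH replicate 1. Without replicate 1 of both HH and HT, Egr1 stood at 0.43, Fos at 0.17, Nr4a1 at 0.64 and Nr4a3 at 0.19.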
